A study of Mus musculus with 8 samples.

Results

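The retinoid receptor genes Rxra, Rxrb, Rxrg, Rara, Rarb and Rarg were examined for intervals of the myogenin and p300 ChIP-seq peak lists lying within 50 kb of their gene bodies. These 6 genes are among 22350 protein-coding genes annotated on the autosomes and chromosome X, and 56 of the 43759 called intervals lay near them. The cells were C2C12, a mouse line of C3H strain myoblasts able to form myotubes. Ctl cells received differentiation medium alone for 24 h, and Bex cells the same medium with 50 nM bexarotene, so the switch of medium is common to both. Each list comes from 1 library of this single cell line, named Myog_Ctl, Myog_Bex, p300_Ctl or p300_Bex. An interval is the mm9 position of a called peak. Tag counts and depths were not analysed here, so the strength of enrichment at an interval is unknown. Since no condition has a second library, the conditions were compared without a test, and a peak found in one condition alone has no replicate check.

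Bexarotene is an agonist that acts selectively on the RXRs. These nuclear receptors work on DNA in pairs, with another RXR or with a different receptor as partner. RARs bind retinoic acid and act as heterodimers with RXRs at response elements built from repeated half-sites. Myogenin is a muscle basic helix-loop-helix factor that binds E-boxes of the form CANNTG, and p300 is a histone acetyltransferase and co-activator found at enhancers and promoters. The question was where myogenin and p300 were called around the genes of the RXRs, on which the drug acts, and of their RAR partners.

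The 6 genes differed widely in how many peaks were called around them. Rxra had 20 intervals, Rara 17, Rxrb, Rarb and Rarg 6 each, and Rxrg 1. In the order Myog_Ctl, Myog_Bex, p300_Ctl and p300_Bex, Rxra had 2, 1, 11 and 6 intervals and Rara had 3, 3, 7 and 4. Rxrb had 4, 1, 1 and 0, Rarb 2, 1, 2 and 1, and Rarg 2, 0, 3 and 1. Rxrg had none except 1 interval of p300_Ctl. Merging overlapping intervals of all lists gave 39 separate regions.

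**Figure D1:**
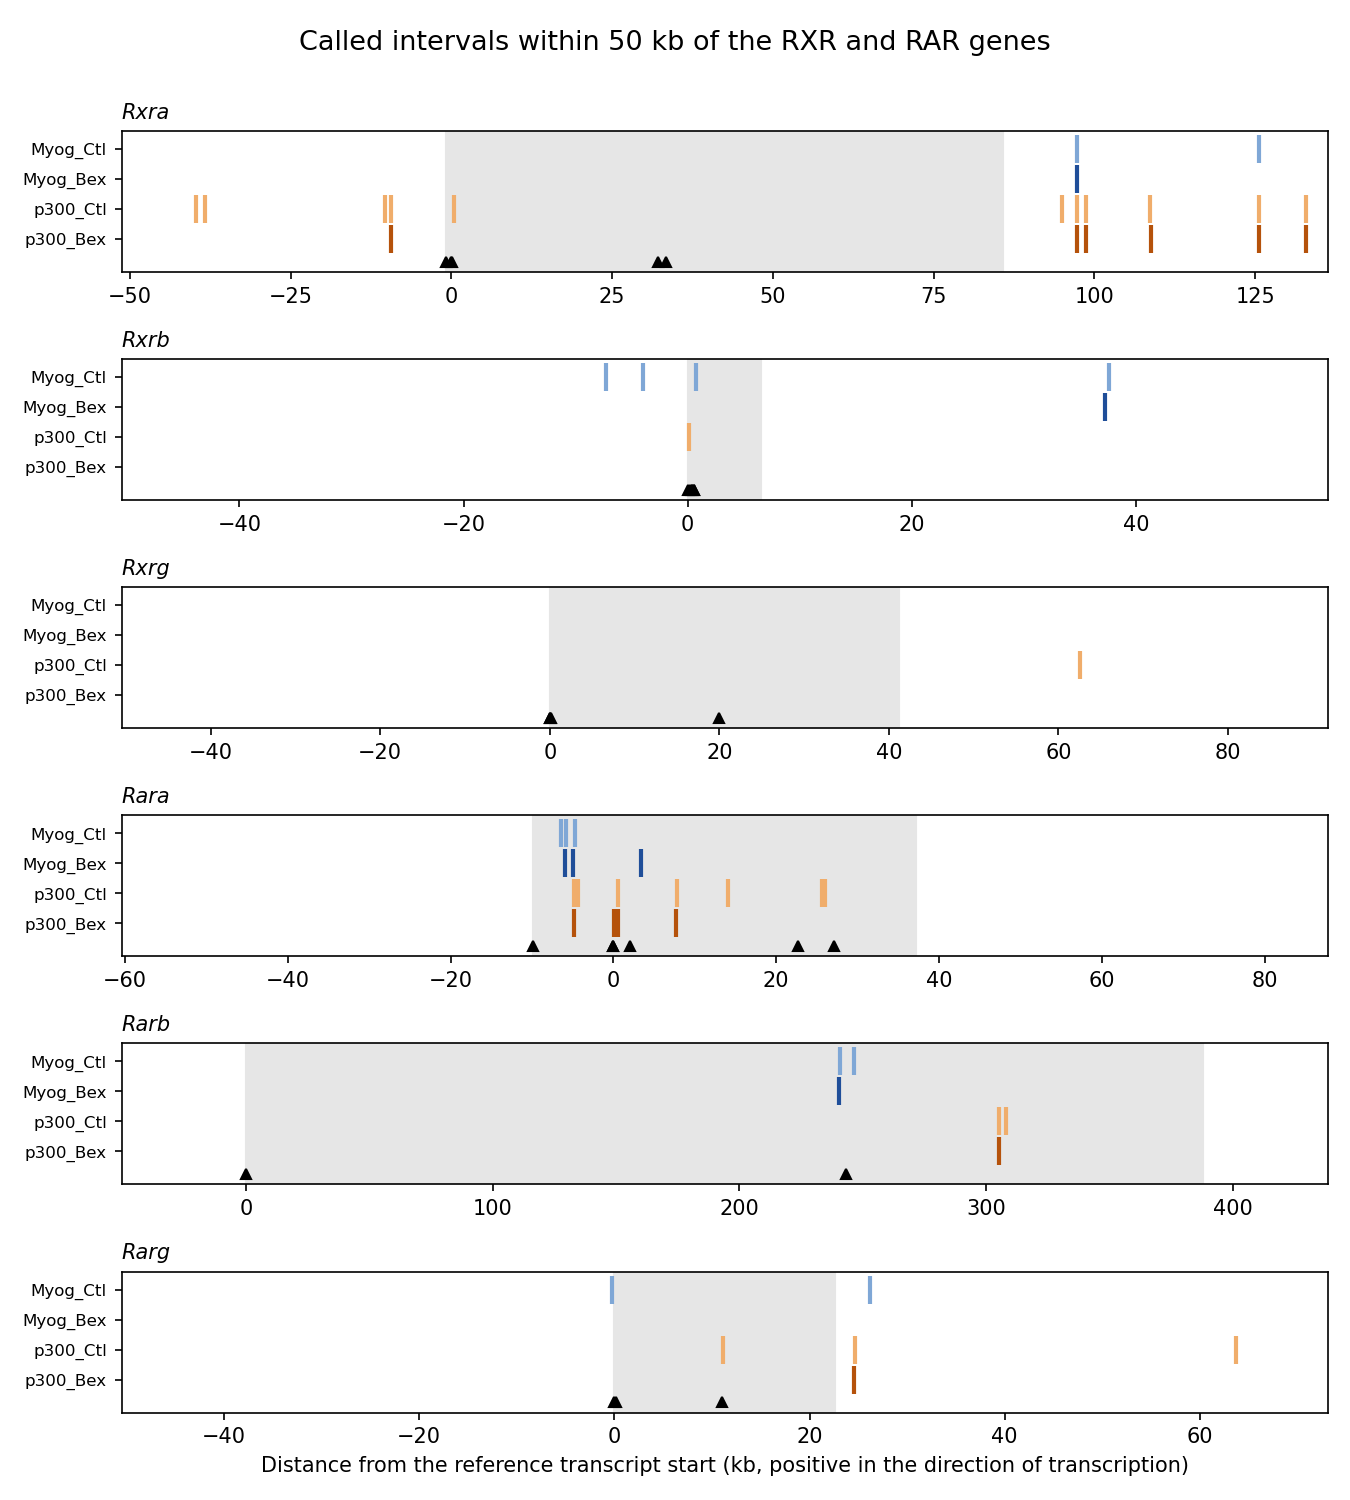
Positions of the called intervals around each gene, with a tick at the center of each interval in each of the 4 lists (rows). The horizontal axis is the distance in kb from the start of the reference transcript, grey is the gene body and triangles are starts of coding transcripts. The ticks of Rxra lie mostly outside the gene body, all ticks of Rara and Rarb lie inside it, and Rxrg has a single tick.

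Sequences of the regions that hold myogenin peaks are shown first, as the plus strand of mm9 with E-boxes in capitals. The E-boxes counted were CAGCTG, which reads the same on both strands, and CACCTG, which reads as CAGGTG on the other strand. The myogenin peaks of Rxra both overlap p300 peaks and lie downstream of the gene. The first is the bexarotene interval of the region called in all 4 lists (chr2:27629955-27630122), and the second is the control interval of a region where p300 was called in both conditions (chr2:27658265-27658436).
Rxra, all 4 lists: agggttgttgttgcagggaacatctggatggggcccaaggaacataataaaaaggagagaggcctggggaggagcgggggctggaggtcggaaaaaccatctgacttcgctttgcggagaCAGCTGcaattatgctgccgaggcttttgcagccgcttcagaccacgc
Rxra, myogenin in control: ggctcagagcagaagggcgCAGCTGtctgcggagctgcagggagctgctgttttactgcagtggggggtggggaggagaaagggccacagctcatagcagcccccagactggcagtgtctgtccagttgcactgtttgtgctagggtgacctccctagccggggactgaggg

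The myogenin peaks of Rara cluster in the first intron of the transcript with the most upstream start. The sequences are the bexarotene intervals at chr11:98793015-98793182 and chr11:98793997-98794164, the control p300 interval that overlaps the latter at chr11:98794124-98794326, and a bexarotene interval further into the gene at chr11:98802306-98802567.
Rara, myogenin in both conditions: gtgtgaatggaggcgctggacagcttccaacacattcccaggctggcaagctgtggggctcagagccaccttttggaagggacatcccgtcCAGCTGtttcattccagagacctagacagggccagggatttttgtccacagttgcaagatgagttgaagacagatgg
Rara, bexarotene myogenin next to p300: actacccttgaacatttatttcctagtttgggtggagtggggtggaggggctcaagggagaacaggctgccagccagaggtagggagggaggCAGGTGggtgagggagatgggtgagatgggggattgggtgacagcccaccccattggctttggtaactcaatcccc
Rara, p300 in both conditions: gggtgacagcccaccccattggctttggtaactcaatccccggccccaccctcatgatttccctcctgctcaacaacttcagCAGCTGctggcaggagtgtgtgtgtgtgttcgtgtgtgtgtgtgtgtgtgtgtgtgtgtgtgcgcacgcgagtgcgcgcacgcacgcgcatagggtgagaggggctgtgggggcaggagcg
Rara, bexarotene myogenin in the gene: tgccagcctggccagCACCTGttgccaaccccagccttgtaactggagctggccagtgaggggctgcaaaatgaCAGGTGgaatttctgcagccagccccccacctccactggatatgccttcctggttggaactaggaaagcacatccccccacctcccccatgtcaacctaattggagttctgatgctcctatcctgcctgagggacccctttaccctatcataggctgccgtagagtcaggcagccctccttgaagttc

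Rarb, Rarg and Rxrb had myogenin peaks without an overlapping p300 peak. The sequences are the bexarotene interval of the Rarb region called in both conditions (chr14:17410726-17410893), the control interval upstream of Rarg (chr15:102088155-102088326), which holds none of these E-boxes, and the bexarotene interval downstream of Rxrb (chr17:34205918-34206085).
Rarb, myogenin in both conditions: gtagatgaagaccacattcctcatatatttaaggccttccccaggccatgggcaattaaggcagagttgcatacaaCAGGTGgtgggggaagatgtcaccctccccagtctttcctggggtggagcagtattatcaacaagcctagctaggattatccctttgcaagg
Rarg, control myogenin upstream of the start: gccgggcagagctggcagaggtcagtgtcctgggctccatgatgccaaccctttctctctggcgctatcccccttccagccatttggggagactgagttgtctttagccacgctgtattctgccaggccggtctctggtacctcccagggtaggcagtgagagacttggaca
Rxrb, bexarotene myogenin downstream: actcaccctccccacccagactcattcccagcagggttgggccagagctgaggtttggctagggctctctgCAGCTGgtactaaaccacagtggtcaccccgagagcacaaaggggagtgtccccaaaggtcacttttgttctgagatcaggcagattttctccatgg

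Among all coding genes, 32.4% had at least 1 Myog_Ctl interval within 50 kb, 32.9% a Myog_Bex interval, 53.8% a p300_Ctl interval and 35.2% a p300_Bex interval. Of the 6 receptor genes 5 had a Myog_Ctl interval (Rxrg lacked one), 4 a Myog_Bex interval, 6 a p300_Ctl interval and 4 a p300_Bex interval. The mean coding gene had 0.664, 0.665, 1.58 and 0.653 intervals in the 4 lists in the same order. At least as many p300 intervals as at Rxra were found at 1.25% of coding genes in control and 1.09% in bexarotene, and for Rara these shares were 4.67% and 3.54%. At least as many Myog_Ctl intervals as at Rxrb were found at 4.27% of coding genes, and at least as many Myog_Bex intervals as at Rara at 7.87%. These shares take no account of gene length, and the windows ran from 106.6 kb at Rxrb to 488.0 kb at Rarb.

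Per Mb of window the receptor genes held 10.9 Myog_Ctl, 5.03 Myog_Bex, 21.0 p300_Ctl and 10.1 p300_Bex intervals, against 2.24, 2.52, 8.36 and 3.47 per Mb over the genome. The ratio to the genome was thus 4.87, 2.00, 2.51 and 2.90, and gene-rich sequence was not separated from the rest in this ratio. Within the windows Rxra had the densest p300_Ctl intervals with 5.90 per 100 kb, and Rarb had 0.410 per 100 kb.

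**Figure D2:**
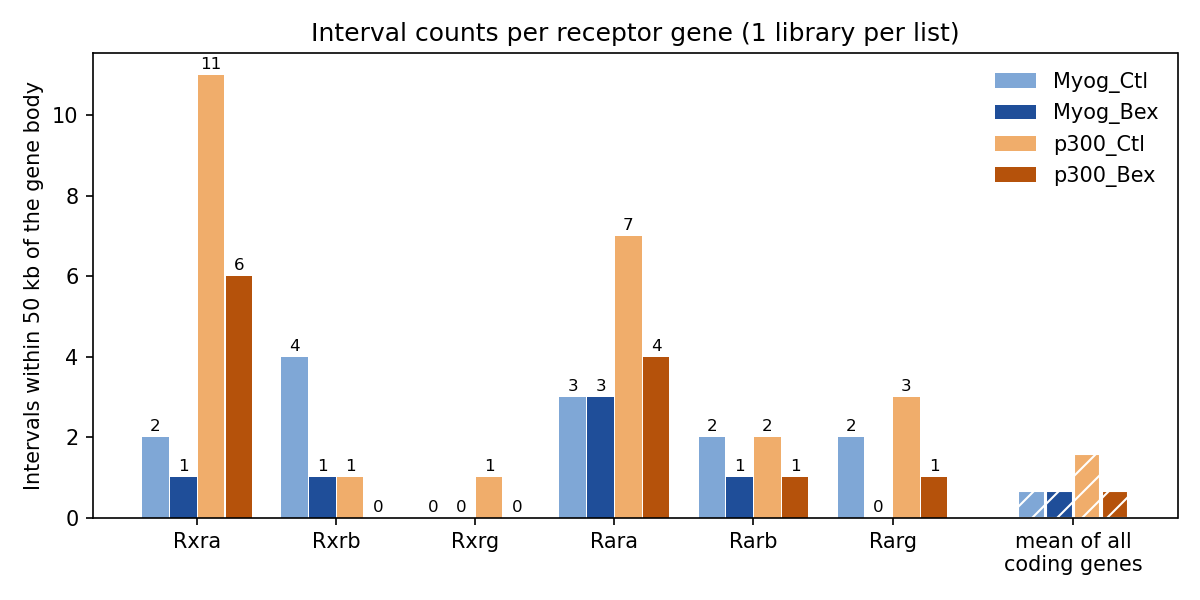
Number of called intervals within 50 kb of each gene body (bars, one per list, numbers above), with the mean over all coding genes in hatched bars. Rxra reaches 11 p300_Ctl intervals and Rara 7, while Rxrg shows a single p300_Ctl interval.

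The p300 lists differ in size, with 22051 intervals in control and 9154 in bexarotene, and the receptor genes followed this difference. Near them were 25 control and 12 bexarotene intervals, a ratio of 0.480 against 0.415 for the whole lists. Of the 25 control intervals 15 overlapped no bexarotene interval, 60.0% (95% Wilson interval 40.7 to 76.6) against 67.3% of the whole list. Of the 12 bexarotene intervals 2 overlapped no control interval, 16.7% (4.70 to 44.8) against 20.3%. The share of each list lies within these intervals, which cover counting error only.

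Near the receptor genes fewer myogenin intervals were called in bexarotene than in control. The myogenin lists hold 5912 intervals in control and 6642 in bexarotene, a ratio of 1.12, whereas near the receptor genes there were 13 and 6, a ratio of 0.462. Of these 19 intervals 31.6% (15.4 to 54.0) were of the bexarotene list, against 52.9% of both lists together, which lies inside the Wilson interval. That Wilson interval takes the 19 as separate, but 3 sites called in both conditions were counted once in each list. Rara had 3 intervals in each condition. Unique to a condition were 10 control and 3 bexarotene intervals, against 2920 and 3645 in the lists, and no Wilson interval was computed for this contrast. Of the 13 control intervals 10 were unique to control, 76.9% (49.7 to 91.8) against 49.4% of the list, and without Rxrb the share was 66.7%. Of the 6 bexarotene intervals 3 were unique to bexarotene, 50.0% (18.8 to 81.2) against 54.9%. Of the 10 unique control intervals 8 had the smallest length in the list, 172 bp, as did 75.6% of all unique control intervals. Some unique intervals lay close to one of the other condition. Up to 200 bp away there was one for 2 of 10 unique Myog_Ctl, 2 of 3 Myog_Bex, 1 of 15 p300_Ctl and 1 of 2 p300_Bex intervals, against 4.04%, 3.16%, 1.20% and 8.84% of the unique intervals of the lists. Counting these as shared left 61.5% (35.5 to 82.3) of Myog_Ctl intervals unique against 47.4% of the list, now inside the Wilson interval, and 1 Myog_Bex, 14 p300_Ctl and 1 p300_Bex interval, against 53.1%, 66.5% and 18.5%. Without the intervals of smallest length, 4 control myogenin and 1 bexarotene myogenin interval remained.

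Of the receptor genes Rxra, which encodes RXR alpha, had the most p300 intervals, and almost all of them lay outside the gene. Rxra is annotated on chromosome 2 from 27531960 to 27618477 on the plus strand, and its window holds no other coding gene. Of its 11 regions 5 lay at or upstream of the transcript starts and 6 downstream of the gene end. None lay within the gene past the first intron of the reference transcript. Upstream, p300 was called in control at chr2:27492938-27493096, chr2:27494290-27494448 and chr2:27522265-27522423, each at the smallest length of 159 bp. A p300 region 8687 bp upstream of the first start was called in both conditions, at chr2:27522987-27523558 (572 bp) in control and at chr2:27523278-27523485 (208 bp) in bexarotene. At the promoter a control interval of 159 bp lay in intron 1 of the reference transcript (chr2:27533041-27533199). It was centered 338 bp past the start of another coding transcript, in whose intron 2 it lay. The GC content of its central 200 bp was 79.5%.
Rxra, control p300 at the promoter: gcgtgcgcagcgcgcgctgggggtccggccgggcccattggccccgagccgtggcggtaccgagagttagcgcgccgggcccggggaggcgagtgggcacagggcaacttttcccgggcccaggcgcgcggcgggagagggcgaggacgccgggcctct
No bexarotene interval of either factor was called within 1 kb of an Rxra start.

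Downstream of Rxra the 6 regions lay between 9205 and 47117 bp from the end of the reference transcript, measured in the p300_Ctl list. The first, chr2:27627519-27627844, was called in p300_Ctl alone. The second was called in all 4 lists, at chr2:27629929-27630182 (254 bp) for Myog_Ctl, chr2:27629955-27630122 (168 bp) for Myog_Bex, chr2:27629895-27630157 (263 bp) for p300_Ctl and chr2:27629914-27630174 (261 bp) for p300_Bex. Its single E-box, a CAGCTG at chr2:27630075-27630080, lay inside all 4 intervals. The nearest coding start to this region was that of Rxra itself, 63936 bp away.

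The next regions downstream of Rxra were called for p300 in both conditions. They lay at chr2:27631224-27631563 (340 bp) in control and chr2:27631342-27631499 (158 bp) in bexarotene, and at chr2:27641075-27641667 (593 bp) and chr2:27641437-27641635 (199 bp). Another, at chr2:27658094-27658432 (339 bp) and chr2:27658167-27658378 (212 bp), overlapped the second myogenin interval of Rxra, called in control at the smallest length of 172 bp. The CAGCTG of that region at chr2:27658284-27658289 lay within all 3 intervals. The last p300 region, chr2:27665281-27665907 (627 bp) in control and chr2:27665554-27665813 (260 bp) in bexarotene, and the one before it were nearer to the start of Col5a1, a fibrillar collagen gene, than to any start of Rxra. For 15 of the 20 intervals around Rxra the nearest coding start was an Rxra start.

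**Figure D3:**
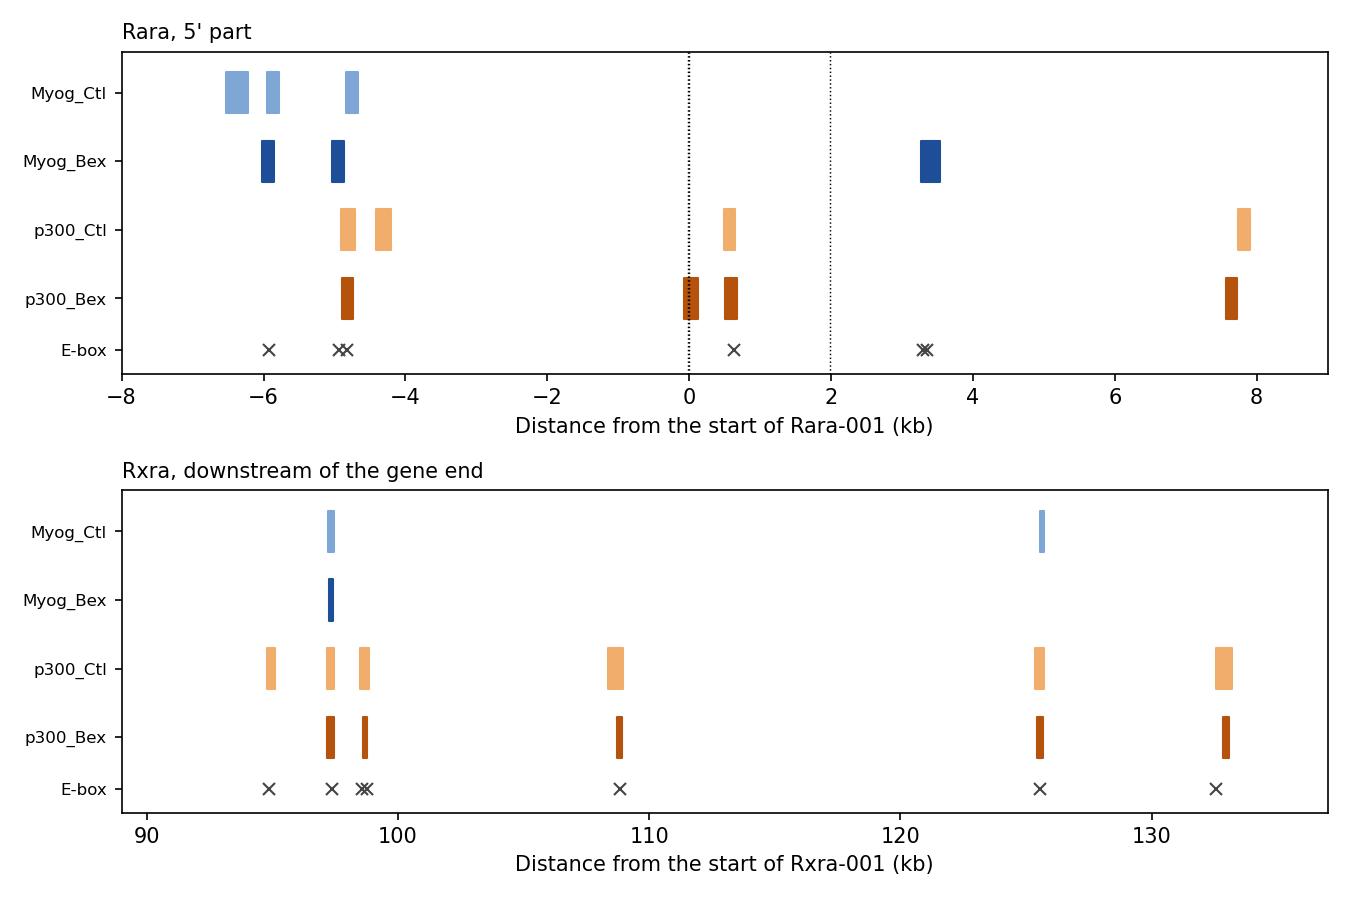
Intervals drawn to scale along the 5′ part of Rara (upper panel) and the sequence downstream of Rxra (lower panel), by list, against the distance in kb from the start of the reference transcript. Dotted lines are starts of coding transcripts and crosses mark E-boxes inside called intervals. At Rara a p300 interval of bexarotene alone lies on the start, and the 2 p300 regions called in both conditions lie upstream of it and further in, and downstream of Rxra 5 p300 regions are called in both conditions.

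Rara, which encodes RAR alpha, carried its peaks inside the gene and most of them around its 5′ part. It lies on chromosome 11 from 98789132 to 98836256 on the plus strand, with coding starts at 98789132, 98799012, 98799032, 98801025, 98821726 and 98826186. All 17 of its intervals had a Rara start as the nearest coding start, although the window also holds Cdc6, Gjd3, Top2a and Wipf2. In intron 1 of the transcript with the first start, myogenin was called in control at chr11:98792504-98792810 (307 bp), with no bexarotene interval closer than 204 bp. The next interval was called in both conditions, at chr11:98793079-98793250 in control and chr11:98793015-98793182 in bexarotene, and the CAGCTG at chr11:98793106-98793111 lay in both.

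Further along this intron was the second region that held intervals of all 4 lists. Here p300 was called at chr11:98794124-98794326 (203 bp) in control and at chr11:98794135-98794292 (158 bp) in bexarotene. Each p300 interval overlapped the myogenin interval of its condition, but the myogenin intervals did not overlap each other. That of bexarotene ran from chr11:98793997-98794164 and held a CAGGTG, and that of control from chr11:98794197-98794368 and held a CAGCTG, with 32 bp between them. Counted by overlap they are 1 peak unique to each condition, at 1 p300 region called in both. A p300 interval at chr11:98794619-98794834 was called in control alone.

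At the starts near the middle of this cluster 1 p300 region was called in bexarotene alone and 1 in both conditions. A bexarotene interval at chr11:98798965-98799161 (197 bp) lay on the start at 98799032, centered 31 bp past it, in the untranslated part of exon 1, with 359 bp to the nearest control interval. A second p300 interval in intron 1 was called in both conditions, at chr11:98799521-98799679 and chr11:98799544-98799701, centered 568 and 591 bp past the start. The part of the bexarotene interval upstream of the annotated exon is chr11:98798965-98799011.
Rara, upstream part of the bexarotene p300 interval: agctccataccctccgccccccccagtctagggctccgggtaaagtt
This interval and chr11:98806600-98806757, 18 bp from a control interval at chr11:98806776-98806934, were the 2 p300 intervals unique to bexarotene among the receptor genes.

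The myogenin interval unique to bexarotene in intron 1 of the reference transcript, chr11:98802306-98802567, was 262 bp long, and 25.1% of the Myog_Bex list is at least as long. It held a CACCTG and a CAGGTG, both outside the central 100 bp, and the nearest control myogenin interval was 7937 bp away. It was the one myogenin interval near the receptor genes that was unique to bexarotene and had no control myogenin interval within 200 bp. The rest of the Rara gene held p300_Ctl intervals in intron 3 at chr11:98812933-98813285, chr11:98824556-98824714 and chr11:98824924-98825214, with no bexarotene interval closer than 6175 bp.

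Rxrb, which encodes RXR beta, had mostly control intervals, and those at promoters were divided among neighboring genes. It spans 6582 bp of chromosome 17, from 34168757 to 34175338 on the plus strand, in a window with Col11a2, H2-K1, H2-Ke6, Ring1 and Slc39a7. At its own starts p300 was called in control at chr17:34168767-34168925, in the untranslated part of exon 1 and centered 89 bp past the first start. Myogenin was called in control at chr17:34169428-34169599, centered 168 bp past another start, and this interval held none of the E-boxes counted. Upstream, control myogenin intervals lay 148 bp past the start of Ring1, a Polycomb gene, at chr17:34161391-34161562, and 188 bp past the start of H2-Ke6 at chr17:34164727-34164898. No bexarotene interval was called at any of these 4 sites, and each interval there had the smallest length of its list.

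Downstream of Rxrb and past the end of its neighbor Col11a2, a pair of myogenin intervals lay 12 bp apart. The control interval at chr17:34206098-34206598 was 501 bp long, which is reached by 2.67% of the Myog_Ctl list, and the bexarotene interval at chr17:34205918-34206085 was 168 bp. Each held 1 CAGCTG, and since they do not overlap they count as 1 peak unique to each condition. The nearest coding start to both was that of Col11a2.

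Rxrg, which encodes RXR gamma, a receptor known from skeletal muscle, had a single interval. The gene lies on chromosome 1 from 169528515 to 169569754 on the plus strand, and p300 was called in control at chr1:169590976-169591190 (215 bp), 21329 bp past the gene end. The nearest coding start was that of Lmx1a, 28287 bp away. No myogenin interval and no bexarotene interval was called within 50 kb of Rxrg.

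Rarb, which encodes RAR beta and is itself a known target of retinoic acid, had 6 intervals in a gene of 388026 bp on the minus strand of chromosome 14, from 17263356 to 17651381. All of them lay within introns of the long transcripts and had a Rarb start as the nearest coding start. Myogenin was called in both conditions at chr14:17410623-17410858 (236 bp) and chr14:17410726-17410893 (168 bp), centered 2755 and 2824 bp upstream of the internal start at 17407986, and 1 CAGGTG lay in both intervals. A control interval at chr14:17404690-17404861, centered 3210 bp past that start, held 1 CAGCTG. In intron 3, p300 was called in control at chr14:17343191-17343349 and in both conditions at chr14:17346017-17346175 in control and chr14:17345966-17346171 in bexarotene. None of the p300 intervals was closer than 61890 bp to the internal start.

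The internal promoter of Rarb is the site of a well known retinoic acid response element, and repeated half-sites were searched for. Half-sites were the consensus AGGTCA and 3 variants of it (AGTTCA is one, GGGTCA is another and GGTTCA is the last), in direct repeats with spacers of 1, 2 or 5 bases on both strands. Within 250 bp upstream of the coding starts of the 6 genes the search gave 1 match, on the minus strand 57 bp upstream of the internal Rarb start, at chr14:17408027-17408043. A direct repeat with a spacer of 5 occurs in 0.0718% of the 45947 upstream sequences of all coding starts, one with a spacer of 1 in 0.161%, one with a spacer of 2 in 0.0740% and any of them in 0.305%. It is printed 5′ to 3′ with the half-sites in capitals.
Rarb, direct repeat with a spacer of 5: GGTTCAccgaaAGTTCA
No interval of the 4 lists covered it, and the nearest, the control myogenin interval at chr14:17410623-17410858, lay 2579 bp away. The half-site letters define a match and say nothing of binding.

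Among the called intervals near the receptor genes 1 held such a repeat within 100 bp of the center, against 0.355% of the Myog_Ctl list. It was the control myogenin interval in intron 1 of H2-Ke6, centered 3944 bp upstream of Rxrb, where the repeat has a spacer of 1 and lies on the plus strand at chr17:34164825-34164837.
Rxrb, direct repeat with a spacer of 1: AGGTCAgAGGTCA
The whole interval, with its E-box in capitals, is chr17:34164727-34164898.
Rxrb, control myogenin in H2-Ke6: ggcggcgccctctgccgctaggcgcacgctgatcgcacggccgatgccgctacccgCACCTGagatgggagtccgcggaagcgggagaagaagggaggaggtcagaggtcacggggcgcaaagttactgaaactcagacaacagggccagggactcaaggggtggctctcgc
No p300 interval near the receptor genes held a match, where 0.200% of the p300_Ctl list and 0.208% of the p300_Bex list do, and neither did the Myog_Bex intervals, against 0.316% of their list.

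Rarg, which encodes RAR gamma, had 6 intervals on chromosome 15 around a gene that runs from 102065369 to 102087948 on the minus strand. Myogenin was called in control at chr15:102088155-102088326, centered 293 bp upstream of the first start, with no E-box of the kinds counted. A p300_Ctl interval at chr15:102076744-102076942 lay on the internal start at 102076931, centered 88 bp past it. Neither promoter had a bexarotene interval. Beyond the gene end, p300 was called in both conditions at chr15:102063159-102063487 (329 bp) and chr15:102063292-102063504 (213 bp), upstream of the start of the integrin gene Itgb7, and myogenin was called in control at chr15:102061682-102061853 in intron 1 of Itgb7. The remaining p300_Ctl interval, chr15:102024102-102024420, was nearest to Csad.

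Considering the promoters together, 2 Myog_Ctl, 0 Myog_Bex, 4 p300_Ctl and 2 p300_Bex intervals were centered within 1 kb of a coding start of a receptor gene. The Myog_Ctl intervals were those of Rxrb and Rarg, and the p300_Ctl intervals those of Rxra, Rxrb, Rara and Rarg. Both p300_Bex intervals were at Rara. Counting the start of any coding gene, 5 of 13 Myog_Ctl intervals lay within 1 kb, 38.5% (17.7 to 64.5) against 24.2% of the list, and 5 of 25 p300_Ctl intervals, 20.0% (8.86 to 39.1) against 11.0%. For Myog_Bex this was 0 of 6, for which the Wilson interval reaches 39.0%, against 12.5% of the list, and for p300_Bex 2 of 12 against 12.4%. These shares are not distinguishable from those of the lists at these numbers.

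Myogenin and p300 intervals of the same condition overlapped at 3 of the 25 p300_Ctl intervals, 12% (4.17 to 30.0) against 8.79% of the list, and at 2 of the 12 p300_Bex intervals, 16.7% (4.70 to 44.8) against 18.5%. All of these were at the regions of Rxra and Rara described above. Seen from the myogenin lists, 3 of 13 Myog_Ctl intervals overlapped p300, against 33.0% of the list, and 2 of 6 Myog_Bex intervals, against 25.6%. Of the 39 regions 23 held intervals of control lists only, 59.0% (43.4 to 72.9), against 53.8% of the 30106 regions made by merging the whole lists. Another 4 held intervals of bexarotene lists only, 10.3% (4.06 to 23.6) against 13.7%, and 3 held both factors, 7.69% (2.65 to 20.3) against 10.8%.

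The regions held 24 E-boxes, of which 16 were CAGCTG and 8 were CACCTG or CAGGTG. Of 15 regions with a myogenin interval 12 held at least 1, 80.0% (54.8 to 93.0) against 69.7% of all merged regions with myogenin. Of 24 regions with p300 alone 8 did, 33.3% (18.0 to 53.3) against 31.7%. Over the whole interval all 6 Myog_Bex intervals held an E-box against 77.2% of the list, and 10 of 13 Myog_Ctl intervals, 76.9% (49.7 to 91.8), against 65.2%. In the 100 bp around the center this was 5 of 6 Myog_Bex intervals, 83.3% (43.6 to 97.0) against 60.3%, and 4 of 13 Myog_Ctl intervals, 30.8% (12.7 to 57.6) against 47.7%. Among p300 intervals the central 100 bp held an E-box in 3 of 25 in control, 12% (4.17 to 30.0) against 19.6%, and in 5 of 12 in bexarotene, 41.7% (19.3 to 68.0) against 25.2%. Over the whole interval these were 11 of 25 against 38.1% and 6 of 12 against 40.7%. The central shares depend on the E-box counted. With any CANNTG they were 69.2% (42.4 to 87.3) for Myog_Ctl against 67.0%, 83.3% for Myog_Bex against 78.9%, 24.0% (11.5 to 43.4) for p300_Ctl, which lies below the 49.5% of the list, and 66.7% (39.1 to 86.2) for p300_Bex against 53.5%. The 1 Myog_Bex interval longer than the smallest length had none of the counted E-boxes in its central 100 bp, so that share was 0.0% without the shortest intervals.

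**Figure D4:**
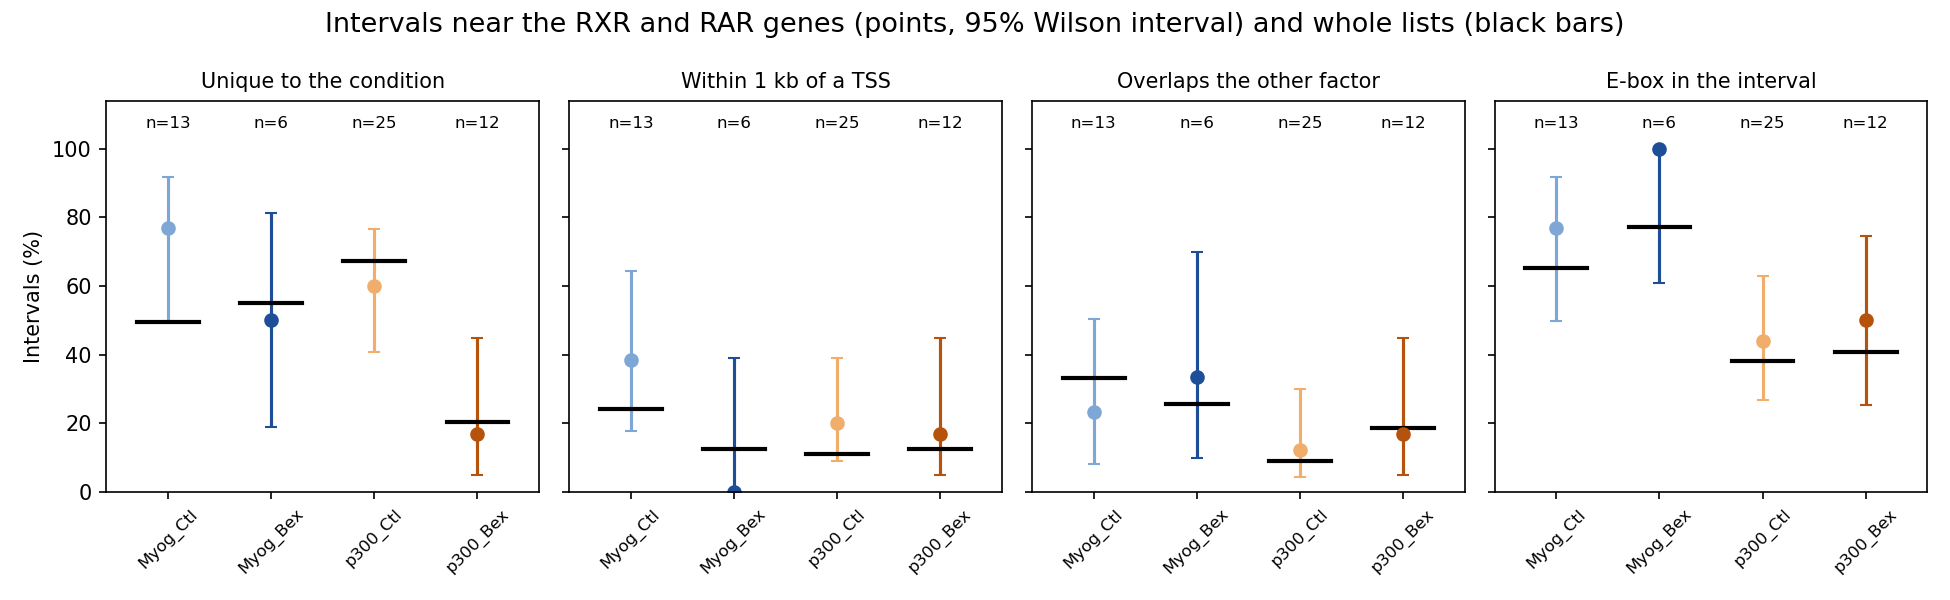
Percent of the intervals near the receptor genes (points, with 95% Wilson intervals and n above) and of the whole lists (black bars) that are unique to their condition, lie within 1 kb of any coding start, overlap the other factor in the same condition, or hold an E-box anywhere in the interval. Of the 16 black bars, that for unique Myog_Ctl intervals (49.4%) lies just under its Wilson interval, which starts at 49.7%, and lies inside it when gaps of up to 200 bp count as shared.

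Consensus sequences of other factors were counted within 100 bp of the interval center, as letters and not as bound sites. All were searched on both strands. The bZIP sequence TGACTCA, or TGAGTCA on the other strand, was found in 3 of 25 p300_Ctl intervals, 12% (4.17 to 30.0) against 27.8% of the list, and in 4 of 12 p300_Bex intervals, 33.3% (13.8 to 60.9) against 27.1%. In the myogenin lists they are found in 10.4% and 12.6%, and near the receptor genes in 1 of 13 and 0 of 6. The Runx sequence TGTGGT was found in 8 p300_Ctl and 2 p300_Bex intervals, against 31.1% and 32.7% of the lists, and in 2 Myog_Ctl and 2 Myog_Bex intervals, against 25.6% and 29.6%. The Tead sequence GGAATG was found in 4 Myog_Ctl, 3 Myog_Bex, 2 p300_Ctl and 3 p300_Bex intervals, against 16.7%, 19.1%, 18.7% and 18.9% of the lists. The Sp1 sequence GGGCGG was found in 6 of 25 p300_Ctl intervals, 24.0% (11.5 to 43.4), which lies above the 9.58% of the list. It was found in 2 of 12 p300_Bex intervals, 16.7% (4.70 to 44.8) against 10.9%, in 1 Myog_Ctl interval against 10.9% and in 0 Myog_Bex intervals against 7.18%. Of the 6 p300_Ctl intervals with GGGCGG, those of Rxra, Rxrb, Rarg and 1 of Rara lay within 1 kb of a start of the gene.

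At the 10 p300 regions called in both conditions the control interval was the longer one in 9, and Rarb was the exception with 159 bp in control and 206 bp in bexarotene. Median lengths were 334 bp for control and 207 bp for bexarotene. The largest ratios were at Rxra, where the control interval was 2.98 times as long 75268 bp past the nearest start and 2.75 times as long 8687 bp upstream. In bp the differences at these regions were 394 and 364, with 367 at the last region downstream of Rxra. Over the whole lists the control interval was the longer one in 90.0% of 7097 one-to-one pairs, with medians of 336 and 203 bp. The share near the receptor genes, 9 of 10, is that of the lists. For myogenin the control interval was the longer one in 54.0% of pairs, while the medians were 226 bp for control and 253 bp for bexarotene. The smallest lengths are 172 and 168 bp for myogenin and 159 and 158 bp for p300, so a pair in which both intervals have the smallest length counts as longer in control, as at 1 of the Rara regions.

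**Figure D5:**
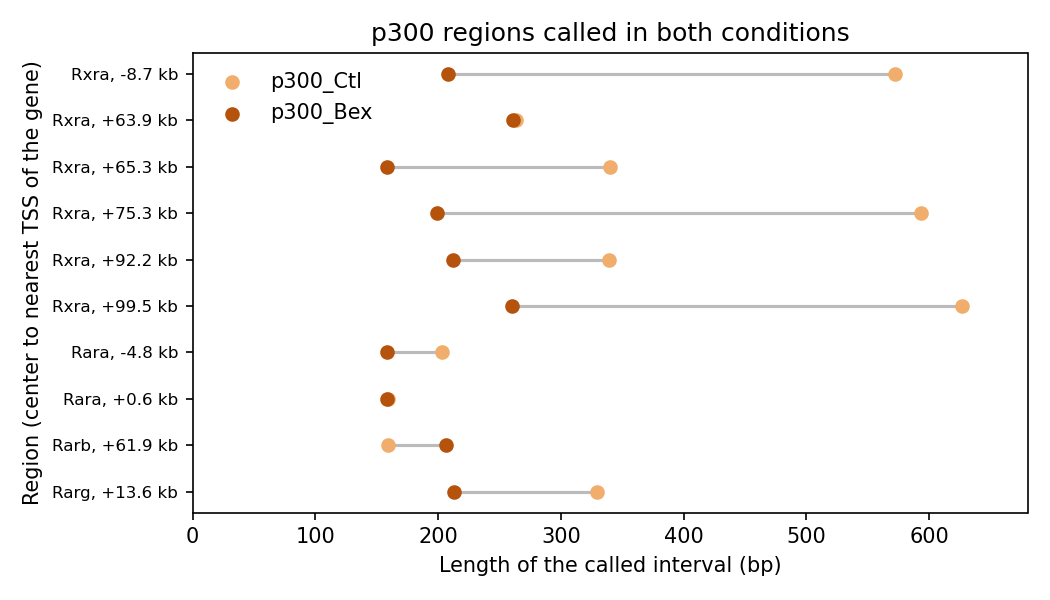
Length in bp of the control and bexarotene intervals at the 10 p300 regions called in both conditions, each named by its gene and the distance of its center from the nearest start of that gene. The control interval is longer in 9 regions, by 1 to 394 bp, and shorter at Rarb.

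Other genes of the retinoid pathway were looked at in the same way. Of 13 receptors that pair with RXR, 6 had a Myog_Ctl, 6 a Myog_Bex, 10 a p300_Ctl and 7 a p300_Bex interval within 50 kb, against 32.4%, 32.9%, 53.8% and 35.2% of all coding genes. The most intervals were at Vdr, the vitamin D receptor gene, with 2, 2, 8 and 7, and at Thra, a thyroid hormone receptor gene, with 4, 4, 6 and 1. Of 13 coregulator genes 6, 5, 10 and 6 had intervals, among them Ep300, the gene of p300 itself, with 3, 2, 2 and 0. Of 19 genes of retinoid transport and metabolism 3, 5, 12 and 10 had intervals, with the most at Crabp2, a retinoic acid binding protein gene, which had 3, 4, 5 and 2. The median number of intervals of the 6 receptor genes was 2, 1, 2.5 and 1, that of the RXR partners 0, 0, 2 and 1, that of the coregulators 0, 0, 3 and 0, that of the retinoid transport and metabolism genes 0, 0, 1 and 1, and that of all coding genes 0, 0, 1 and 0. Within 10 kb, 17.5%, 17.6%, 31.4% and 18.2% of coding genes had an interval, and 4, 2, 5 and 4 of the 6 receptor genes did.

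Genes with the pattern of counts most like each receptor gene were found from the sum of absolute differences over the 4 lists. The counts of Rara, 3, 3, 7 and 4, were matched exactly by 3 genes, of which Jdp2 and Nanos3 were nearest in length. No gene matched Rxra, and Ppp3ca was nearest with 1, 1, 11 and 6. The counts of Rarb were shared by 49 genes and those of Rxrb and Rarg by 9 each. As a check of the cell type, 8 of 9 muscle genes matched in the annotation had a Myog_Ctl interval within 50 kb and 7 a Myog_Bex interval, with 4 of each at Myog, against 32.4% and 32.9% of all coding genes. A p300_Ctl interval was found at 6 of the 9 and a p300_Bex interval at 7, against 53.8% and 35.2%.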

How the data were processed

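Myogenin and p300 ChIP-seq peak lists were used, 1 for each factor and condition, from 4 of the 8 samples of the series. The deposited files are 0-based mm9 positions of peaks called by the authors with HOMER, with no signal, score or count. Reads of 50 bp had been aligned with Bowtie for p300, allowing 3 mismatches and keeping 1 best alignment, and with BWA-MEM at default settings for myogenin, so the factors differ in alignment. Duplicates were removed with Picard, and peaks were called on each library separately, so a call also depends on that library's depth. The submitters' processing notes also name bedtools. Positions were written 1-based. Genes and transcript starts came from GENCODE vM1 and sequence from the mm9 assembly (NCBIM37). The 6 genes and the pathway lists were chosen with earlier results of these data known. Intervals within 50 kb of a gene body were counted with Python 3.11.15, pandas 2.3.3 and pysam 0.24.0. An overlap of 1 bp counted as shared. Distances ran from the interval center to the nearest start of a coding transcript. Wilson intervals (95%) were computed from the formula, which was checked against scipy 1.17.1. The functions for overlap, gaps, windows, E-boxes, direct repeats, distance to a start and Wilson intervals were tested on simulated data. The other steps, such as merging regions and counting the other consensus sequences, had no such test. The rule for intervals given with coordinates took those within 1 kb of a receptor gene start, all myogenin intervals, and the longest or bexarotene-only p300 regions. The other coordinates of p300 intervals were added after their values were seen. The pair of genes per receptor gene with the most similar counts was taken, ties by window length. The paper gives an average read number over its datasets, but the depth of each library was not examined. Samples without a peak list were not analysed here.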

Additional observations from a re-analysis of the deposited data

How the results depend on the processing

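No paired analysis was possible because each condition has 1 library and no test was made. Keeping only intervals longer than the smallest of their list left 4 Myog_Ctl, 1 Myog_Bex and 15 p300_Ctl intervals and left 0.0% of Myog_Bex intervals with a central E-box. The unique share was then 100% for Myog_Ctl and 100% for Myog_Bex, against 38.4% and 50.3% of the lists, but 2 of the 4 Myog_Ctl intervals became unique only because the filter dropped their partners. A window of 100 kb gave 11 Myog_Bex intervals, and one of 10 kb gave 16 p300_Ctl and 7 p300_Bex intervals. Leaving out each gene in turn gave 3 to 6 Myog_Bex, 14 to 24 p300_Ctl and 6 to 12 p300_Bex intervals, the lowest without Rara for the first and without Rxra for the others. It gave 66.7% (without Rxrb) to 81.8% of Myog_Ctl intervals unique and 0.0% (without Rara) to 33.3% (without Rxra) of p300_Bex intervals unique. Counting gaps of up to 200 bp as shared, an alternative chosen after seeing the data, left 61.5% of Myog_Ctl and 16.7% of Myog_Bex intervals unique, and a reciprocal overlap of 50% made 50.0% of p300_Bex intervals unique, against 45.4% of the list. At 2 kb from a start there was 1 Myog_Bex interval, and at 500 bp 1 p300_Bex interval. The E-box share over the whole interval was 76.9% for Myog_Ctl, 100% for Myog_Bex and 44.0% for p300_Ctl, and any CANNTG near the center was found in 69.2% of Myog_Ctl, 24.0% of p300_Ctl and 66.7% of p300_Bex intervals. Within 10 kb, 23.1%, 23.1% and 46.2% of the RXR partners had a Myog_Ctl, Myog_Bex and p300_Ctl interval, 5.26%, 10.5% and 21.1% of the retinoid transport and metabolism genes had a Myog_Ctl, Myog_Bex and p300_Bex interval, and 17.5%, 17.6%, 31.4% and 18.2% of all coding genes had one of each list. The cause of these shifts was not tested, apart from the smaller windows and shorter lists themselves. With 6 to 25 intervals per list, most differences from the whole list lie within counting error where a Wilson interval was computed. The exceptions are the Myog_Ctl unique share, Sp1 and CANNTG in p300_Ctl, and the direct repeat in Myog_Ctl, which is 1 interval. The Myog_Ctl unique share lies within counting error when gaps of up to 200 bp count as shared. No Wilson interval was computed for unique intervals within 200 bp of the other condition. These were 2 of 3 for Myog_Bex against 3.16% of the list and 2 of 10 for Myog_Ctl against 4.04%.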
